A study of Homo sapiens with 9 samples.

Results

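The 10 genes described here are regulators of the BCL2 family of apoptosis proteins, BCL2, BCL2L1, BCL2L2, MCL1, BCL2L11, BCL2L12, BAK1, BID, BIK and BMF, picked by gene symbol from the 29972 genes of the expression table. RNA was sequenced from H2030, a cell line long established from a human lung cancer of the non-small cell type, after transfection with siRNA at 20 nmol/L. In siMENA11a cells a mix of 3 siRNAs was directed at exon 11a of ENAH, which encodes the actin regulator hMENA, in siMENA cells a commercial pool was directed at all ENAH isoforms, and control cells received a non-targeting pool. Each group had 3 libraries, 9 in all. All groups were exposed to the same lipid transfection reagent and no untransfected cells were used here, so each contrast is between transfected cells of a single line. The non-targeting pool belongs to another reagent line than the pool against all isoforms. Whether the libraries of a group were grown as separate cultures is not in the labels, so every p-value reflects the spread among these 9 libraries alone, and that spread may be technical.

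BCL2 family proteins decide whether the outer mitochondrial membrane stays intact. The guardians BCL2, Bcl-xL (BCL2L1), Bcl-w (BCL2L2) and MCL1 hold the pore-forming effectors BAK1 and BAX in check. The BH3-only proteins, among them BID, BIM (BCL2L11), BMF and BIK, bind the guardians or activate the effectors, after which cytochrome c escapes and caspases are activated; epithelial tumour cells often lean on Bcl-xL and MCL1 for survival.

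Values are TPM, a level corrected for gene length that sums to the same total in every library, divided by a size factor for each library. Such values hold no read numbers, so sequencing depth is unknown and counting error cannot be stated. Size factors were 0.891 to 0.978 in siMENA11a, 1.06 to 1.09 in siMENA and 1.00 to 1.05 in control, and RN7SL RNAs took 44.3% to 45.2%, 39.6% to 40.6% and 39.7% to 41.1% of TPM in siMENA11a, siMENA and control. ENAH stood at 6.85, 7.26 and 7.45 scaled TPM in siMENA libraries 1, 2 and 3, against 43.4, 43.0 and 44.5 in control libraries. Its level in siMENA11a libraries was 46.4, 47.2 and 48.4 scaled TPM, and since a gene sum does not measure exon 11a, it checks only the siMENA label. The epithelial keratins KRT8 and KRT18 averaged 89.1 and 211 scaled TPM in siMENA11a, 93.4 and 221 in siMENA and 96.9 and 251 in control. EPCAM and KRT7, also epithelial, averaged 2.88 and 15.7 scaled TPM in siMENA11a, 3.08 and 4.30 in siMENA and 1.45 and 9.88 in control, so EPCAM was higher in both knockdowns and KRT7 higher in siMENA11a and lower in siMENA (limma adjusted p of 0.000325 or less in each), while CDH1 and KRT19 were at or below 0.13 in every library. The summed level of 6 epithelial markers was 314 to 328 in siMENA11a, 310 to 330 in siMENA and 354 to 366 in control. The sums of 4 fibroblast markers were 7.43 to 7.64, 15.3 to 17.1 and 8.51 to 9.18, of 4 endothelial markers 0.547 to 0.584, 0.969 to 1.22 and 0.510 to 0.669, and of 5 leukocyte markers 1.59 to 2.23, 0.782 to 0.918 and 1.26 to 1.29 in siMENA11a, siMENA and control, with 2 leukocyte markers at 0 in all 9 libraries. Each of these 3 sums was mostly a single gene: COL1A1, CDH5 and CD14 in turn. In siMENA11a, siMENA and control COL1A1 averaged 6.34, 14.5 and 7.68 scaled TPM, CDH5 0.532, 1.06 and 0.573, and CD14 1.84, 0.813 and 1.25. The part of these markers in the results was not tested. In bulk RNA, fewer cells of a type and less RNA per cell cannot be told apart.

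BAK1 rose in both knockdowns, by 0.83 in siMENA11a and by 0.25 in siMENA on the log2 scale relative to control. The guardian BCL2L1 went in opposite directions, 0.12 in siMENA11a (-0.02 in TPM as deposited) and -0.21 in siMENA, and so did the BH3-only gene BMF, at -0.43 and 0.43. BIK, at a low level, rose in both, and BCL2L2 fell in both.
A difference is a log2 fold change of scaled TPM + 0.5, which understates the change of low genes, with its standard error, and it was called at an adjusted p under 0.05 from limma (Benjamini and Hochberg, 13494 tested genes). Testing was restricted to genes whose scaled TPM averaged 0.5 or more, which held 9 of the 10 family genes and left out BCL2.

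In siMENA11a against control, 3 of the 9 tested genes rose (BCL2L1, BAK1 and BIK), 3 fell (BCL2L2, BCL2L12 and BMF) and 3 were not called, where 55.6% of all tested genes were called, 27.9% higher and 27.7% lower. In siMENA against control, 3 rose (BAK1, BIK and BMF), 3 fell (BCL2L1, BCL2L2 and BCL2L11) and 3 were not called, where 49.5% of all genes were called, 23.7% higher and 25.8% lower. In siMENA11a against siMENA, 4 were higher (BCL2L1, MCL1, BAK1 and BID), 2 were lower (BIK and BMF) and 3 were not called, where 58.7% of all genes were called, 29.5% higher and 29.2% lower. With the F test over the 3 groups, 8 of 9 were called, BID being the exception, where 73.2% of all genes were called. With 6 of 9 genes called in each pairwise comparison, the family's share lay near that of all genes and is no result about the family. The median log2 fold change of the 9 genes was 0.07, -0.07 and 0.13 in the 3 comparisons, beside 0.01, 0.01 and 0.00 over all tested genes. The median size of the change, without sign, was 0.26, 0.21 and 0.17, beside 0.23, 0.20 and 0.25.
The share of calls that were higher depended on the scaling, so that 50.2% of calls in siMENA11a against control were higher, 28.6% in TPM as deposited and 63.3% without small and structured RNAs. The same shares were 47.9%, 63.4% and 69.2% in siMENA against control and 50.3%, 24.3% and 45.4% in siMENA11a against siMENA. The comparisons with control share the control libraries, so their values stand side by side here and their likeness is not a result.

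**Figure D1:**
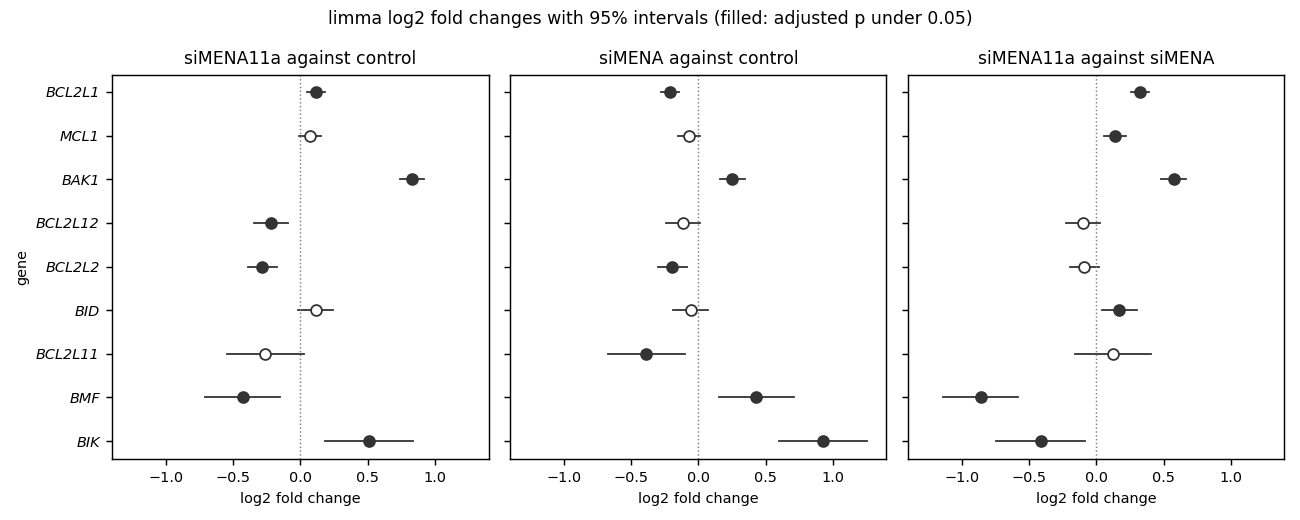
The log2 fold changes (x axis) of the 9 tested BCL2 family genes (y axis) in the 3 comparisons, with 95% intervals; filled points have a limma adjusted p under 0.05. BAK1 lies at 0.83 in siMENA11a against control, BMF at -0.86 in siMENA11a against siMENA, and BID is open in both comparisons with control.

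Exon 11a, the stretch at which the siMENA11a mix is aimed, lies on chromosome 1 and is shown here because a word of it recurs in the 3′ UTRs of 3 family genes. Coordinates and letters are of GRCh38 (GENCODE 29), 5′ to 3′ on the gene's strand, while GRCh37 stands in the submitters' processing notes. Capitals mark the words CCAAGGA and CAAGGAA, each 7 bases long.
ENAH exon 11a, chr1:225504991-225505053, minus strand: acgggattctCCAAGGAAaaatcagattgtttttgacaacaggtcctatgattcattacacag
BMF, chr15:40090315-40090344, minus strand: ctcagggctacCCAAGGAAataggaggagt
BCL2L2, chr14:23311459-23311488, plus strand: ctttgtttaggCCAAGGAAggagcggaagt
BID, chr22:17735228-17735256, minus strand: aaagcaggtttCAAGGAAgtagaaacaaa
These words were picked on these data, as the 2 lowest of the 57 words of the exon when ranked by the change of genes that carry them in siMENA11a against control. The tested family genes entered that ranking. Lower values of carriers thus follow from the choice of words and are no support for them. One or the other is in the 3′ UTR of 2726 of 11309 tested genes with an annotated 3′ UTR (24.1%), whose median log2 fold change was -0.07, against 0.03 for other genes. Among the 9 tested family genes, 3 hold a word. Of these BMF and BCL2L2 fell in siMENA11a while BID was not called, and BCL2L12 fell without a word. A longer 3′ UTR has more room for a word. The 3′ UTR searched was 3897 bases long in BMF, 2794 in BCL2L2, 1442 in BID and 226 in BCL2L12. For siMENA against control, the 7673 words of ENAH transcripts carried by enough tested genes were first screened by the mean change of their carriers. Only the lowest of these were then ranked as above, which picked CAGAATA and AGAATAA. The same limit holds for these words. One or the other is in 3013 of the 11309 genes (26.6%), with a median of -0.06 against 0.03 for other genes. Among the 9 tested family genes BCL2L11, which fell in siMENA, and MCL1, which was not called, hold AGAATAA.
BCL2L11, chr2:111165475-111165503, plus strand: agcaccatagaAGAATAAttctgggcaga
MCL1, chr1:150577208-150577236, minus strand: tatggctaacaAGAATAAatacatgggaa
The siRNA sequences were not used here, and the part of these matches in any change was not tested.

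The 10 genes had the same order of levels in all 3 groups, from BCL2L1 through MCL1, BAK1, BCL2L12, BCL2L2, BID, BCL2L11, BMF and BIK to BCL2. BCL2L1, which makes Bcl-xL, averaged 99.9 ± 1.51 scaled TPM in siMENA11a, 79.5 ± 1.00 in siMENA and 92.1 ± 2.77 in control (SD, n = 3 each). BCL2, the founding guardian, was at 0.14 to 0.42 scaled TPM across all 9 libraries, so the guardian transcripts of H2030 cells were mostly those of BCL2L1 and MCL1. The ranges of neighbours in this order overlapped only for BMF and BIK in siMENA11a and for BIK and BCL2 in control.
The summed level of the 4 guardians was 183 ± 3.23 scaled TPM in siMENA11a, 157 ± 2.17 in siMENA and 174.9 ± 4.37 in control. BCL2L1 made up 54.5% of that sum in siMENA11a, 50.6% in siMENA and 52.6% in control, and MCL1 made up 38.9%, 41.1% and 38.8%. BCL2L2 made up 6.48% in siMENA11a, 8.07% in siMENA and 8.33% in control, and BCL2 made up 0.182%, 0.203% and 0.185%. The sum leaves out the read-through BCL2L2-PABPN1, which shares exons with BCL2L2. It averaged 40.8 scaled TPM in siMENA11a, 47.4 in siMENA and 49.1 in control. The sum, these shares and the place of BCL2L2 in the order are therefore uncertain.

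**Figure D2:**
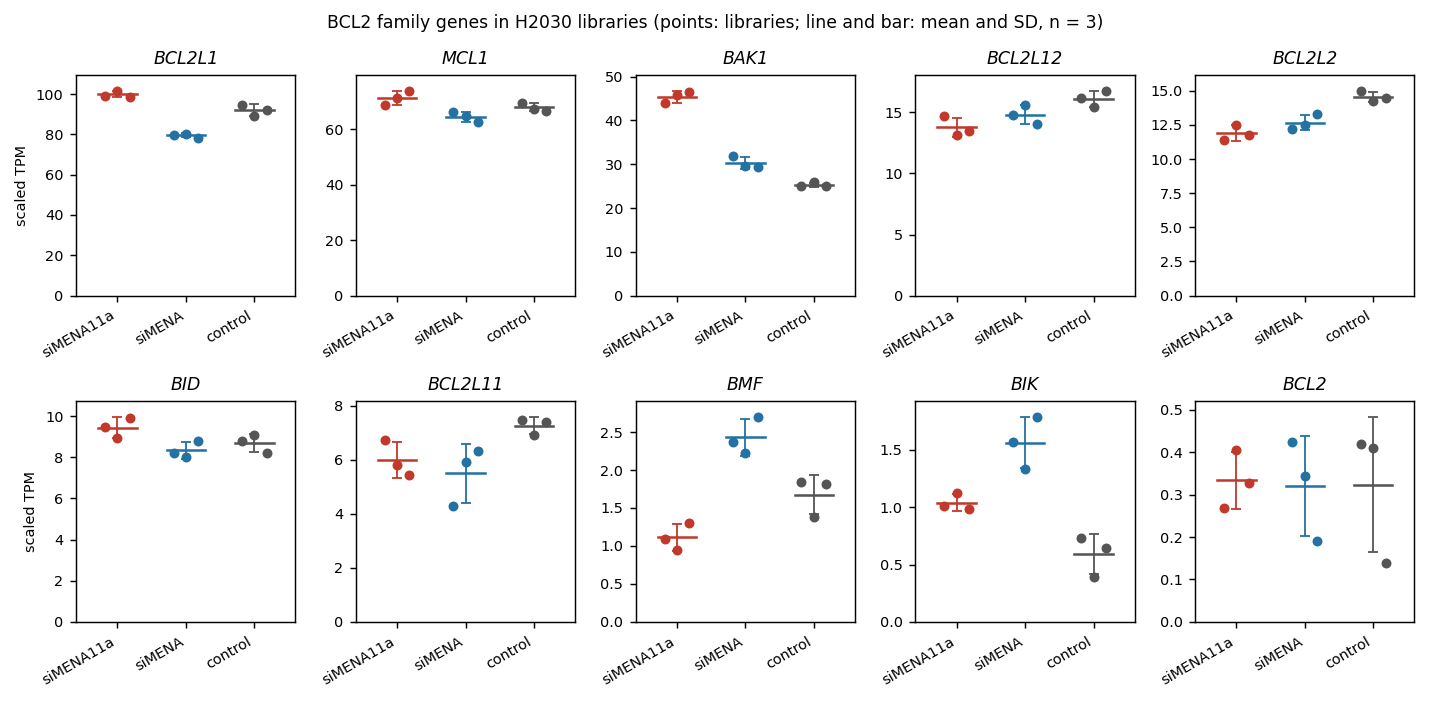
Scaled TPM (y axis of each panel, starting at 0) of the 10 genes in siMENA11a, siMENA and control; points are libraries, lines and bars the mean and SD (n = 3). BAK1 averages 45.4 in siMENA11a, 30.3 in siMENA and 25.4 in control, and BMF is highest in siMENA at 2.43.

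Among the guardians, BCL2L1 stood at 99.3, 102 and 98.8 scaled TPM in siMENA11a libraries 1, 2 and 3, at 79.8, 80.4 and 78.5 in siMENA libraries, and at 94.8, 89.3 and 92.2 in control libraries. The groups did not overlap: siMENA11a was above control and siMENA below it. BCL2L1 rose by 0.12 ± 0.030 on the log2 scale in siMENA11a against control (limma adjusted p = 0.00875) and fell by 0.21 ± 0.030 in siMENA against control (adjusted p = 0.000377). The difference between the knockdowns was 0.33 ± 0.030 (adjusted p = 1.21e-05). The rise depended on the scaling, with -0.02 in TPM as deposited (adjusted p = 0.780), and the fall was -0.07 after quantile normalisation (adjusted p = 0.0727); over 19 alternatives the adjusted p was 0.000403 to 0.780 for the rise and 0.000306 to 0.0727 for the fall. The difference between the knockdowns was called in all 19 alternatives. The table sums transcripts per gene, and 12 transcript identifiers stand beside BCL2L1, so its long and short isoforms, which are known for opposite effects on survival, were not separated.

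MCL1, a short-lived guardian, stood at 68.7, 71.2 and 73.8 scaled TPM in siMENA11a libraries, 66.3, 64.7 and 62.7 in siMENA libraries and 69.6, 67.5 and 66.7 in control libraries. The siMENA libraries were below all control libraries in scaled TPM, though not in TPM as deposited, and the siMENA11a libraries overlapped the control libraries. Neither difference from control was called, at 0.07 with a 95% interval of -0.01 to 0.15 in siMENA11a (limma adjusted p = 0.136) and -0.07 with an interval of -0.15 to 0.01 in siMENA (adjusted p = 0.123). The siMENA11a difference was called without small and structured RNAs (0.15, adjusted p = 0.0136) and after quantile normalisation (0.14, adjusted p = 0.0223), over a range of 0.0136 to 0.379. In TPM as deposited both signs turned, to -0.06 in siMENA11a (limma adjusted p = 0.379) and 0.01 in siMENA (adjusted p = 0.892). The siMENA sign also turned without small RNAs (0.05, limma adjusted p = 0.404) and after quantile normalisation (0.05, adjusted p = 0.354). The difference between siMENA11a and siMENA was 0.14 ± 0.036 (adjusted p = 0.0074); it was -0.08 in TPM as deposited (adjusted p = 0.277) and not called without small RNAs (0.10, adjusted p = 0.0645) or after quantile normalisation (0.09, adjusted p = 0.116), over a range of 0.00498 to 0.277.
Within a library, where scaling has no part, the ratio of BCL2L1 to MCL1 was 1.44, 1.43 and 1.34 in siMENA11a, 1.20, 1.24 and 1.25 in siMENA and 1.36, 1.32 and 1.38 in control. The siMENA ratios lay below all others. The exact permutation p (two-sided) was 0.1 for siMENA against control, the smallest that 3 against 3 libraries allow, and 0.3 for siMENA11a against control, or 0.12 and 0.3 adjusted over 12 such ratio tests.

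BCL2L2, which makes Bcl-w, stood at 11.4, 12.5 and 11.7 scaled TPM in siMENA11a libraries, 12.2, 12.5 and 13.3 in siMENA libraries and 15.0, 14.3 and 14.4 in control libraries. Both knockdowns were below all control libraries and overlapped each other. BCL2L2 fell by 0.28 ± 0.049 in siMENA11a (limma adjusted p = 0.000847) and by 0.19 ± 0.049 in siMENA (adjusted p = 0.00855). The siMENA fall was -0.11 in TPM as deposited (adjusted p = 0.175) and -0.08 without small RNAs (adjusted p = 0.236), over a range of 0.0058 to 0.236, while the siMENA11a fall was called in all 19 alternatives. The read-through BCL2L2-PABPN1 shares exons with BCL2L2 and averaged 40.8 scaled TPM in siMENA11a, 47.4 in siMENA and 49.1 in control, and HOMEZ, on the opposite strand, averaged 4.27, 2.22 and 1.83, so reads of the locus may be split between them and the BCL2L2 values are uncertain.
BCL2, the namesake guardian, stood at 0.269, 0.405 and 0.327 scaled TPM in siMENA11a libraries, 0.424, 0.343 and 0.192 in siMENA libraries and 0.420, 0.411 and 0.140 in control libraries. All groups overlapped, and without a filter its difference was 0.03 in siMENA11a against control (limma adjusted p = 0.917) and 0.00 in siMENA against control (adjusted p = 1).
BCL2L12, an atypical proline-rich relative described in glioma cells as a brake on effector caspases, stood at 14.7, 13.2 and 13.5 scaled TPM in siMENA11a libraries, 14.8, 15.6 and 14.0 in siMENA libraries and 16.2, 15.4 and 16.7 in control libraries. The siMENA11a libraries lay below all control libraries, and the siMENA libraries overlapped both. BCL2L12 fell by 0.22 ± 0.056 in siMENA11a (limma adjusted p = 0.00822), a call kept in all 19 alternatives, and the siMENA difference was -0.12 with an interval of -0.24 to 0.01 (adjusted p = 0.111). IRF3 overlaps BCL2L12 on the opposite strand and averaged 22.9 scaled TPM in siMENA11a, 31.3 in siMENA and 28.6 in control; the use of strand in counting is not given in the sources used here.

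BAK1, one of the pair of pore-forming effectors, stood at 43.9, 45.7 and 46.6 scaled TPM in siMENA11a libraries, 31.9, 29.7 and 29.3 in siMENA libraries and 25.1, 25.9 and 25.1 in control libraries. The groups did not overlap, with siMENA11a highest and control lowest. BAK1 rose by 0.83 ± 0.040 in siMENA11a against control, 1.79-fold on the group means (limma adjusted p = 3.4e-07), and by 0.25 ± 0.040 in siMENA, 1.20-fold (adjusted p = 0.000658). The difference between the knockdowns was 0.57 ± 0.040 (adjusted p = 1.89e-06). All 3 calls were kept in 19 alternatives, with log2 fold changes of 0.70 to 0.92 in siMENA11a, 0.22 to 0.37 in siMENA and 0.36 to 0.61 between them.
BAX, the other effector, which is outside the 10 genes, stood at 41.6, 39.2 and 39.4 scaled TPM in siMENA11a libraries, 53.8, 54.6 and 51.6 in siMENA libraries and 52.3, 54.5 and 55.0 in control libraries. It fell in siMENA11a, with siMENA11a libraries below all others, by 0.42 on the log2 scale (limma adjusted p = 1.22e-05), and its siMENA difference was -0.02 (adjusted p = 0.742). The ratio of BAK1 to BAX within a library was 1.05, 1.17 and 1.18 in siMENA11a, 0.593, 0.544 and 0.569 in siMENA and 0.481, 0.474 and 0.456 in control, so BAK1 exceeded BAX in siMENA11a and was well below it in the other groups. The log2 difference of this ratio was 1.27 in siMENA11a against control and 0.27 in siMENA against control, each with an exact permutation p (two-sided) of 0.1, the smallest that 3 against 3 libraries allow (0.12 adjusted over 12 ratio tests).
Relative to BCL2L1, the most abundant guardian, BAK1 averaged 0.454 ± 0.015 in siMENA11a, 0.381 ± 0.017 in siMENA and 0.276 ± 0.013 in control (SD, n = 3 each). These ratios did not overlap between groups, with the same exact permutation p of 0.1 in each comparison (0.12 adjusted).

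**Figure D3:**
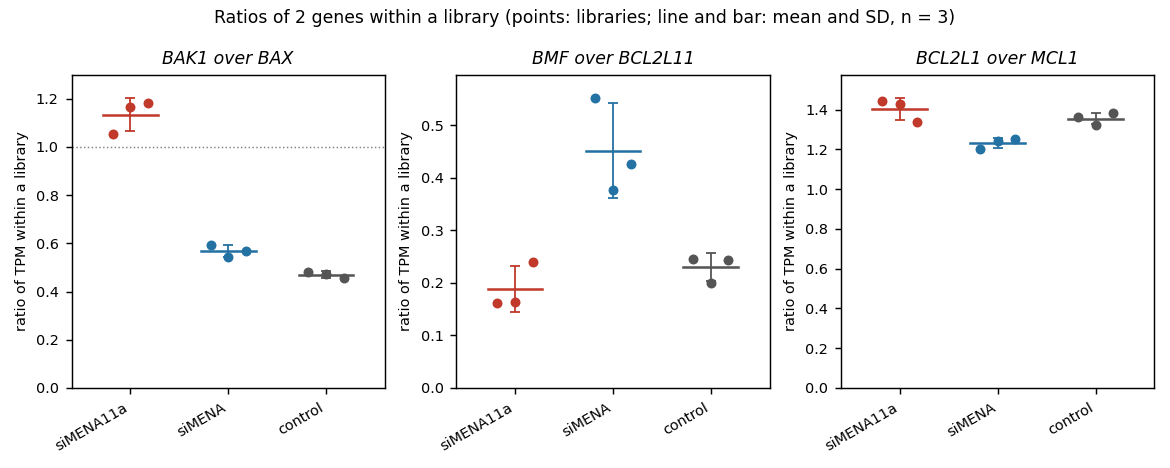
Ratios of 2 genes within a library (y axes, from 0), which no scaling between libraries changes, for siMENA11a, siMENA and control; points are libraries, lines and bars the mean and SD (n = 3). BAK1 over BAX lies above 1 in all siMENA11a libraries and at 0.456 to 0.593 elsewhere, and BMF over BCL2L11 is highest in siMENA.

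Of the BH3-only genes, BMF, a protein tied to the actin and myosin motor system through dynein light chain 2, stood at 1.09, 0.952 and 1.30 scaled TPM in siMENA11a libraries, 2.37, 2.23 and 2.70 in siMENA libraries and 1.84, 1.38 and 1.81 in control libraries. The groups did not overlap, with siMENA highest and siMENA11a lowest. BMF fell by 0.43 ± 0.12 in siMENA11a (limma adjusted p = 0.0153) and rose by 0.43 ± 0.12 in siMENA (adjusted p = 0.0172), and the difference between siMENA11a and siMENA was -0.86 ± 0.12 (adjusted p = 0.000242), called in all 18 alternatives. The siMENA11a fall was not called without siMENA11a replicate 2 (-0.36, adjusted p = 0.0580), control replicate 1 (-0.38, adjusted p = 0.0547) or control replicate 3 (-0.38, adjusted p = 0.0509), over a range of 0.00481 to 0.058, and the siMENA rise was not called without siMENA replicate 3 (0.37, adjusted p = 0.0653) or control replicate 2 (0.33, adjusted p = 0.0604), over a range of 0.00627 to 0.0653. DYNLL2, the dynein light chain that binds BMF, stood at 16.9, 15.1 and 15.9 scaled TPM in siMENA11a libraries, 36.1, 35.2 and 37.5 in siMENA libraries and 20.0, 23.6 and 21.8 in control libraries. It fell by 0.44 in siMENA11a (limma adjusted p = 0.000277) and rose by 0.72 in siMENA (adjusted p = 1.5e-05), with a difference between them of -1.16 (adjusted p = 3.8e-07).

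BCL2L11, which makes BIM and responds in many cells to loss of survival signals, stood at 6.74, 5.82 and 5.43 scaled TPM in siMENA11a libraries, 4.28, 5.91 and 6.33 in siMENA libraries and 7.48, 6.91 and 7.42 in control libraries. Both knockdowns lay below all control libraries, and they overlapped each other. BCL2L11 fell by 0.39 ± 0.13 in siMENA (limma adjusted p = 0.0295), and in siMENA11a its difference was -0.26 with an interval of -0.55 to 0.02 (adjusted p = 0.106). Without siMENA replicate 1, the lowest library, the siMENA difference was -0.23 (adjusted p = 0.0617), 6 other alternatives also ended that call over a range of 0.0149 to 0.0782, and the siMENA11a difference was called without that library (adjusted p = 0.0196) and in 2 other alternatives, over a range of 0.0196 to 0.281.
The ratio of BMF to BCL2L11 within a library was 0.162, 0.164 and 0.239 in siMENA11a, 0.553, 0.377 and 0.426 in siMENA and 0.246, 0.199 and 0.245 in control. The siMENA ratios lay above all others, and the exact permutation p (two-sided) was 0.1 for siMENA against control and 0.2 for siMENA11a against control (0.12 and 0.218 adjusted over 12 ratio tests). The BIM transcript is alternatively spliced, 33 transcript identifiers stand beside the gene, and its isoforms were not separated.
Only the first 67 bases of the 300-base promoter window of BCL2L11 are shown, and the start lies outside them. They hold, on the gene's own strand, the motif GTAAACA, which FOXO factors bind. The window is from RefSeq on GRCh38.p14. Windows from 250 bases before to 50 after a start were found there for 7 of the 10 genes (14 windows). Capitals mark the motif, 223 bases before the start.
BCL2L11 promoter, chr2:111120664-111120730, plus strand: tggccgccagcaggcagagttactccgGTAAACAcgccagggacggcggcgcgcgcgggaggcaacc
GTAAACA, searched on both strands, is in 3.42% of 35116 such windows and in no window of another of the 7 genes. The E-box CACGTG is in 7.26% of windows and in 2 of the 5 BID windows, which overlap and hold the same single site. The interferon element, GAAA and GAAA with 2 bases between them (3.57%), and the E2F motif TTTCCCGC (1.63%) are in no window of the 7 genes. A match is a description and not a binding site. FOXO3 rose by 0.52 in siMENA11a (limma adjusted p = 2.01e-05), and its siMENA difference was -0.08 (adjusted p = 0.233). Neither FOXO1 (-0.08 in siMENA11a and 0.26 in siMENA) nor FOXO4 (-0.06 and 0.23) was called against control. The part of FOXO factors in the level of BCL2L11 was not tested.

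BIK, an endoplasmic reticulum BH3-only protein, stood at 1.01, 1.13 and 0.982 scaled TPM in siMENA11a libraries, 1.56, 1.34 and 1.78 in siMENA libraries and 0.730, 0.392 and 0.648 in control libraries. The groups did not overlap, with siMENA highest and control lowest. BIK rose by 0.51 ± 0.15 in siMENA11a (limma adjusted p = 0.0146) and by 0.93 ± 0.15 in siMENA (adjusted p = 0.000658), and both calls were kept in 18 alternatives. The difference between siMENA11a and siMENA was -0.42 ± 0.15 (adjusted p = 0.0341), and it was not called in 6 of 18 alternatives, 5 of which leave out a library, over a range of 0.00675 to 0.119. Control levels averaged 0.590 ± 0.176 scaled TPM, close to the pseudocount of 0.5, so the log2 values understate the fold, which was 1.76 in siMENA11a and 2.65 in siMENA on the group means.
BID, which caspase 8 cleaves to link death receptors to mitochondria, stood at 9.48, 8.92 and 9.92 scaled TPM in siMENA11a libraries, 8.19, 8.02 and 8.77 in siMENA libraries and 8.78, 9.07 and 8.20 in control libraries. Control libraries overlapped both knockdowns. The difference from control was 0.11 with an interval of -0.02 to 0.24 in siMENA11a (limma adjusted p = 0.124) and -0.06 with an interval of -0.19 to 0.07 in siMENA (adjusted p = 0.448), the first of which was called without small RNAs (0.20, adjusted p = 0.0270, over a range of 0.0270 to 0.909). In TPM as deposited both signs turned, to -0.01 in siMENA11a (limma adjusted p = 0.909) and 0.02 in siMENA (adjusted p = 0.836). The siMENA sign also turned without small RNAs (0.06, limma adjusted p = 0.490). BID was higher in siMENA11a than in siMENA by 0.17 ± 0.058 (adjusted p = 0.0292); that difference was -0.04 in TPM as deposited (adjusted p = 0.722) and not called in 6 other alternatives, over a range of 0.0204 to 0.722.

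**Figure D4:**
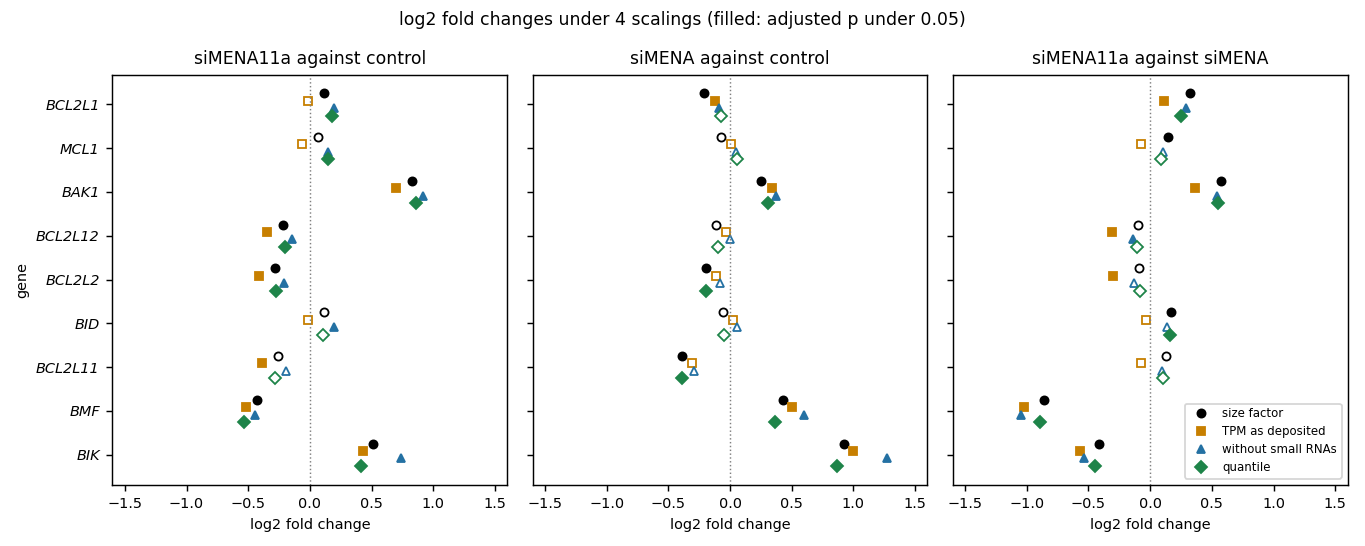
The log2 fold changes (x axis) of the 9 genes (y axis) under 4 scalings of the libraries, by comparison; filled marks have an adjusted p under 0.05. BAK1 is filled and above 0 under each, while BCL2L1 in siMENA11a against control lies between -0.02 and 0.20.

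A further list held 16 genes: other BCL2 family genes, the BNIP genes, which are named as interactors of the family, and the read-through BCL2L2-PABPN1. Of these, 13 were tested. In siMENA11a against control 6 were called higher (BCL2L13 0.49, HRK 0.48, BNIP1 0.34, BNIP3 0.24, BNIP2 0.22 and BNIP3L 0.21). In that comparison 2 were lower (BAX and BCL2L2-PABPN1, -0.27), and BAD, BBC3, BCL2A1, BOK and PMAIP1 were not called. HRK, a BH3-only gene, averaged 0.361 scaled TPM in control and passed the filter through the knockdown groups. In siMENA against control only BNIP2 was higher, at 0.14, while BNIP3L (-0.77), PMAIP1 (-0.71), BNIP3 (-0.50) and BAD (-0.23) were lower and 8 were not called. BNIP3 and BNIP3L mark mitochondria for mitophagy, and PMAIP1 makes NOXA, the BH3-only protein that binds MCL1. PMAIP1 stood at 4.19, 3.64 and 5.39 scaled TPM in siMENA11a libraries, 1.56, 1.85 and 2.10 in siMENA libraries and 3.49, 3.48 and 2.99 in control libraries, and the siMENA libraries were below all others. Between siMENA11a and siMENA, 7 were higher, 2 lower and 4 not called; BCL2L10, BCL2L14 and BCL2L15 were below the filter in all comparisons. The list's median was 0.22, -0.05 and 0.34 in the 3 comparisons, beside 0.01, 0.01 and 0.00 over all genes. Counts of this list and of the lists below stand beside these shares of all tested genes. In siMENA11a against control 55.6% were called (27.9% higher, 27.7% lower), and in siMENA against control 49.5% (23.7% higher, 25.8% lower). In siMENA11a against siMENA 58.7% were called (29.5% higher, 29.2% lower). No list was tested as a set.
Genes that act downstream of the mitochondria, caspases and the apoptosome (11 tested), were higher in 4 and lower in 7 in siMENA11a. All 11 were thus called, where 55.6% of all tested genes were called. CASP8 rose by 0.68, while DFFA, which makes the inhibitor of the caspase-activated DNase, was at -0.82 and APAF1, the apoptosome scaffold, at -0.51. In siMENA 2 were higher and 4 lower, with APAF1 at -0.76, CYCS, which makes cytochrome c, at -0.26, DFFA at -0.21 and CASP8 at -0.14, and between siMENA11a and siMENA 4 were higher and 5 lower. The list's median was -0.35, -0.03 and -0.08 in the 3 comparisons.
Inhibitors of apoptosis and their antagonists (8 tested of 10) were higher in 2 and lower in 1 in siMENA11a: XAF1, an interferon-induced antagonist of XIAP, rose by 2.43, BIRC3 by 0.27, and BIRC5, which makes survivin, was at -0.40. XAF1 averaged 0.250 scaled TPM in control, 0.222 in siMENA and 3.61 in siMENA11a, so it passed the filter only through siMENA11a. It is also among the 6 genes higher in siMENA11a than in siMENA. In siMENA 5 were lower, among them XIAP at -0.89, BIRC5 at -0.61, BIRC2 at -0.46 and HTRA2 at -0.39, and 0 were called higher by limma, with 1 higher at an unadjusted p under 0.05. Between siMENA11a and siMENA 6 were higher, and 0 were lower, also at an unadjusted p under 0.05. The list's median was 0.02, -0.37 and 0.37.
Death receptor genes (13 tested of 14) were higher in 2 and lower in 7 in siMENA11a, where RIPK1 was at -0.70, CFLAR, which makes the caspase 8 inhibitor FLIP, at -0.34, TNFRSF21 at -0.30, and the adaptor gene TRADD rose by 0.49. In siMENA 3 were higher and 5 lower, with the decoy receptor TNFRSF10D at 1.06, TNFRSF21 at 0.26, CFLAR at -0.30 and the adaptor FADD at -0.23, and between siMENA11a and siMENA 3 were higher and 4 lower. The list's median was -0.14, -0.05 and -0.03.
Partners and turnover factors of the family (11 tested) were higher in 1 and lower in 4 in siMENA11a, where the BID receptor MTCH2 was at -0.34, DYNLL2 at -0.44, DYNLL1, which binds BIM, at -0.17 and VDAC1 at -0.17. In siMENA 2 were higher and 4 lower, with DYNLL2 at 0.72, DYNLL1 at -0.38, USP9X, which removes ubiquitin from MCL1, at -0.31 and VDAC1 at -0.29, and between siMENA11a and siMENA 5 were higher and 3 lower. The list's median was 0.01, -0.05 and 0.07.
Transcription factors known to regulate family genes (12 tested of 14) were higher in 6 and lower in 2 in siMENA11a, where DDIT3 rose by 0.83, FOXO3 by 0.52 and MYC by 0.35, and STAT3, known to induce BCL2L1 and MCL1, was at -0.42. In siMENA 2 were higher and 2 lower, with ATF4 at -0.58, STAT3 at -0.47 and MYC at 0.46, and between siMENA11a and siMENA 4 were higher and 4 lower. The list's median was 0.04, -0.01 and -0.03.

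For BAK1, BCL2L1 and BMF, the 3 family genes with the lowest F test p, the most alike genes were sought by the root mean square difference of centred log2 levels over the 9 libraries, among tested genes with a mean of at least 1 scaled TPM. Nearest to BAK1 were AGO4 (0.0514), CTGF (0.0559) and PABPC1L (0.0643). Nearest to BCL2L1 were ITSN1 (0.0305), HP1BP3 (0.0312) and MBNL1 (0.0365), and nearest to BMF were CSNK1G1 (0.101), SPOCK2 (0.102) and C10orf2 (0.111).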

How the data were processed

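RNA of 9 libraries (3 a group) had been depleted of ribosomal RNA and sequenced as read pairs, per the labels' protocols. The deposited table gives TPM per gene, rounded to 2 decimals, made by the authors. Its name points to RSEM, while the submitters' processing notes name kallisto and GRCh37 without role or version. Whether RSEM or kallisto made the TPM values, and with what counting settings, is unknown here. Here TPM was divided by a median-of-ratios size factor over 12341 genes (average TPM of 1 or more, above 0 in every library). For the 13494 genes averaging 0.5 scaled TPM or more, log2(scaled TPM + 0.5) was fitted by limma 3.58.1 under R 4.3.3 (3 group means over 9 libraries, eBayes with trend, no block), tested on simulated data, with p adjusted by Benjamini and Hochberg over all tested genes.

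Each knockdown was compared with control and siMENA11a with siMENA. Ratios within a library were compared with exact permutation tests (scipy 1.17.1). Alternatives were 3 other scalings, 2 pseudocounts (0.1 and 1), 2 filters, a robust fit, fits of the 2 groups alone, a replicate block and leaving out each library. The members, gene lists and exon words were chosen with earlier results of these data known. The text names all 10 members, all genes on the list of other family genes and interactors, and ENAH. It also names up to 4 called genes of each other list by adjusted p, and the 3 most alike genes of 3 members. Some genes that rule names are not reported here, though list counts and medians include them. A few genes outside that rule, such as IRF3 and HOMEZ, were named after their values were seen. Matplotlib 3.10.9 drew the plots.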

Additional observations from a re-analysis of the deposited data

Results flagged for a closer look

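Both knockdowns were set against the same control libraries. A family gene was flagged when limma called it in opposite directions in them and also called its difference between siMENA11a and siMENA. That last call is thus part of the rule and no separate support. BCL2L1 and BMF, 2 family genes, met it. The share of all tested genes that meet the rule was not counted, so this count is no result about the family. For BCL2L1 the difference between siMENA11a and siMENA was 0.33 on the log2 scale, higher in siMENA11a in 3 of 3 libraries than in any siMENA library. For BMF it was -0.86, lower in 3 of 3. The limma contrast of siMENA11a against siMENA was called in all 19 alternatives for BCL2L1 and all 18 for BMF. The differences from control were less steady. In TPM as deposited the BCL2L1 difference in siMENA11a was -0.02 (limma adjusted p = 0.780), and its fall in siMENA lost its call in 1 of 19 alternatives. The BMF fall in siMENA11a lost its call in 3 of 18 alternatives, and the BMF rise in siMENA in 2.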

How the results depend on the processing

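Counts of family genes moved with the scaling and with the filter. In TPM as deposited, 1 gene was lower in siMENA against control (3 in the main analysis), 2 were higher in siMENA11a against siMENA (4) and 4 lower (2). Without small and structured RNAs, 5 were higher in siMENA11a against control (3), 1 was lower in siMENA against control and 2 higher in siMENA11a against siMENA. With a pseudocount of 0.1, 1 was lower in siMENA11a against siMENA. With a filter of 5 scaled TPM, which removes BMF and BIK, 1 was higher in siMENA against control and 0 lower in siMENA11a against siMENA, also at an unadjusted limma p under 0.05. Leaving out single libraries gave 1 to 2 lower in siMENA11a against siMENA. Among differences called in the main analysis, TPM as deposited turned the sign of BCL2L1 in siMENA11a against control (-0.0155). It also turned that of MCL1 (-0.0751) and BID (-0.0355) in siMENA11a against siMENA. Signs also turned for differences called under neither scaling. These were MCL1 (-0.0640) and BID (-0.0124) in siMENA11a against control, and MCL1 (0.0111) and BID (0.0232) in siMENA against control. BCL2L11 in siMENA11a against siMENA (-0.0757) was another. In siMENA against control the signs of MCL1 (0.0460) and BID (0.0581) also turned without small RNAs. That of MCL1 turned after quantile normalisation as well (0.0542). In TPM as deposited BCL2L2 (-0.30, limma adjusted p = 0.00216) and BCL2L12 (-0.31, adjusted p = 0.000757) were also called lower in siMENA11a than in siMENA. Deposited TPM shifts the median of all genes to -0.11 in siMENA11a against control and -0.20 in siMENA11a against siMENA.

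Replicate numbers were not used as pairs in the main fit. Correlations of deviations from the group means ran from -0.0652 to 0.0586 over 9 pairs of same-numbered libraries of different groups. In differently numbered pairs they ran from -0.0639 to 0.102. Such values cannot decide whether same-numbered libraries were made together. With a replicate block, 3 genes were higher and 3 lower in siMENA11a against control, 3 and 2 in siMENA against control and 3 and 2 in siMENA11a against siMENA, and 7308, 6384 and 7732 genes were called in all. BCL2L11 in siMENA (adjusted p = 0.0545) and BID in siMENA11a against siMENA (adjusted p = 0.0518) were not called under it. TPM keeps no depth, so low values such as those of BCL2, BIK and BMF have unknown counting error.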
